A study of Rattus norvegicus with 24 samples.

Results

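The enzymes described here remove superoxide and peroxides: the superoxide dismutases Sod1, Sod2 and Sod3, the catalase Cat, the glutathione peroxidases Gpx1 and Gpx4, and the peroxiredoxins Prdx1, Prdx2, Prdx3 and Prdx6. They were chosen by name, and all 10 were found among the 32883 reference genes listed for each rat. RNA-Seq was run on frontal cortex of 24 adult male Sprague-Dawley rats, taken 24 h after exposure. The Low and High groups had inhaled an aerosol of tungsten particles, and the Control group had not. By the sample labels the tungsten dose was 0 mg/m3 in the Control group, 5 mg/m3 in the Low group and 80 mg/m3 in the High group, each of 8 rats. The question put to the data was whether transcript levels of these enzymes differed between the exposure groups. Levels are given as scaled coverage, which is the mean read depth per base of a gene divided by the summed depth of all reference genes of that rat and multiplied by 1000000. Depth per base does not grow with transcript length, so levels of different genes can be set side by side on this scale.

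Superoxide is a by-product of respiration and of oxidase enzymes. Superoxide dismutases turn it into hydrogen peroxide, Sod1 with copper and zinc in the cytosol, Sod2 with manganese in mitochondria, and Sod3 with copper and zinc outside the cell. Hydrogen peroxide is then removed by catalase in peroxisomes, by glutathione peroxidases with glutathione, and by peroxiredoxins, most of which are recharged by thioredoxin. Several of these genes are textbook targets of the transcription factor Nrf2, which binds the antioxidant response element. In brain, neurons and glia depend on these enzymes because oxygen use is high and membrane lipids oxidise readily.

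The promoters of 8 of the 10 genes were found in the RefSeq promoter table of build GRCr8, which has no entry under the names Sod3 and Prdx6. Of these, 4 are printed because their genes differ in the pattern of variation described further on. Sod1 and Prdx1 varied together between rats, while Sod2 and Cat correlated weakly with them over all 24 rats, which for Cat changed when 2 libraries were left out. Each line gives the 250 bases before the annotated start, 5′ to 3′ on the strand of the gene. Capitals mark matches on either strand to 5 motifs, which are the antioxidant response element core TGACNNNGC, the AP-1 site TGAGTCA, the GC box GGGCGG, the CCAAT box CCAAT and the TATA box TATAAA. The windows are chr11:42942573-42942822 on the plus strand for Sod1, chr5:135383656-135383905 on the plus strand for Prdx1, chr1:50050169-50050418 on the minus strand for Sod2 and chr3:110329527-110329776 on the minus strand for Cat.
Sod1: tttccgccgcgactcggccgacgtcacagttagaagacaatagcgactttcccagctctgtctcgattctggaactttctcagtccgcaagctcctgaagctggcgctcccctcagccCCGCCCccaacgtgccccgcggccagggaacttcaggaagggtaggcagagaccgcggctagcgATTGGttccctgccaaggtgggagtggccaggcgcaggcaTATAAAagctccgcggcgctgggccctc
Prdx1: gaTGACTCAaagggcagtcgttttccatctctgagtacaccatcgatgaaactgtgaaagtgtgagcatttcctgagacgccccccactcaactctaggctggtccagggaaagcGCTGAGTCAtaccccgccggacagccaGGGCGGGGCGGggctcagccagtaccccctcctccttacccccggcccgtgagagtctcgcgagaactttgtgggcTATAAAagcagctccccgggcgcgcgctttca
Sod2: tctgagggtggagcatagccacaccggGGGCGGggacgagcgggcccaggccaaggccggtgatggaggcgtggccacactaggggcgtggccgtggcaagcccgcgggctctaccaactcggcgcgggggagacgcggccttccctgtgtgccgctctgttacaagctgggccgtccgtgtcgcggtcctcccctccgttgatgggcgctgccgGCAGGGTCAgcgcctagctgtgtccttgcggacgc
Cat: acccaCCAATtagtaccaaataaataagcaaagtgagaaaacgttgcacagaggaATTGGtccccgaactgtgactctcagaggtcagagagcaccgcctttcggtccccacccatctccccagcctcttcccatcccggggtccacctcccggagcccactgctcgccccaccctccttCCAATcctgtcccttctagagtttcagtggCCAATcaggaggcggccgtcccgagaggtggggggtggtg
The antioxidant response element core was matched in Prdx1, 135 bases before the start, and in Sod2, 35 bases before it. It was matched in 10.1% of all 33469 promoters of the table. The match in Prdx1 overlaps an AP-1 site at 133 bases before the start, and a further AP-1 site of Prdx1 begins 248 bases before it. Prdx1 was the only one of the 8 genes with an AP-1 site, which 4.05% of all promoters held. A TATA box was matched in Sod1 and Prdx1 and in 12.9% of all promoters, and a CCAAT box in Sod1, Cat and Gpx4 and in 34.0% of all promoters. The GC box was matched in 7 of the 8 genes, all but Cat, and in 30.5% of all promoters. Cat held 4 CCAAT boxes instead. A gene was counted if any of its windows held a match, and Gpx4 has 3 windows, while the shares of all promoters count each promoter singly. These matches describe the letters of the windows, and binding was not measured.

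Before the results, some properties of the libraries need to be stated. Summed depth over the reference genes was 1.64 to 3.07 per rat in units of 1000000, and the tables hold no read counts, so counting error is not known. The Low tables hold 0 loci assembled from reads, while Control and High tables hold 46334 to 66427 apart from library 56 (Control) with 159573, so exposure to the low dose and the kind of table cannot be told apart. In those 16 tables each of the 10 genes was also covered by exactly 1 assembled locus on its own strand, and in 128 of the 160 cases that locus had the same coverage as the reference entry. Only the reference entry was used here. In library 56 assembled loci took 55.1% of all coverage, against 38.8% to 42.6% in the other 15 tables, and 9 of the 10 genes also had assembled loci on the opposite strand, against 1 to 4 genes in the other tables. The members past the threshold were 0 in each comparison without it, as in all fits that left out 1 library. In their transcript content, libraries 49 (Control) and 57 (Low) stood apart from the other rats of their groups. Their summed scaled coverage of 10 genes with very long transcripts (Ank2, Macf1 and others) was 177 and 226, while the other Control and Low rats had 362 to 551 and the High rats had 281 to 416. Ribosomal protein genes had their highest sum of the Control and of the Low group in the same libraries, 26254 and 29482. High libraries 65 and 67 had ribosomal protein sums of 26494 and 26347, with 281 and 296 for the very long transcripts. Results that rest on libraries 49 and 57 are given with and without them, and libraries 65 and 67 stayed in both. Markers of neurons, astrocytes, oligodendrocytes and microglia were present in every group, and the labels give frontal cortex as the tissue, although their extraction note speaks of cell lines. In RNA of whole tissue, fewer cells of a type and less RNA per cell cannot be told apart.

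The levels of the 10 genes spanned a 16.9-fold range in Control. Prdx2 was highest with a scaled coverage of 313 ± 27.4 (SD, n = 8), followed by Sod1 with 259 ± 33.6. A middle group held Gpx4 (139 ± 14.2), Prdx1 (136 ± 13.3), Sod2 (119 ± 14.0) and Prdx6 (106 ± 9.59). Below these came Prdx3 (63.8 ± 6.62), Gpx1 (52.0 ± 7.12), Cat (39.3 ± 3.95) and Sod3 (18.6 ± 2.09). Prdx2 exceeded Sod1 in 24 of 24 rats, Sod1 exceeded Gpx4 in 24, Prdx6 exceeded Prdx3 in 24, Prdx3 exceeded Gpx1 in 24, Gpx1 exceeded Cat in 23, and Cat exceeded Sod3 in 24. Within the middle group neighbours overlapped. Gpx4 exceeded Prdx1 in 17 of 24 rats and in 5 of the 8 Control rats, Prdx1 exceeded Sod2 in 21 rats, and Sod2 exceeded Prdx6 in 18. The least abundant member, Sod3, was still covered at a depth of 26.6 to 58.2 reads per base, and Prdx2 at 490 to 1035. Among the 15644 genes tested, Prdx2 ranked 329 and Sod1 411 by Control level, and Sod3 ranked 7031.

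**Figure D1:**
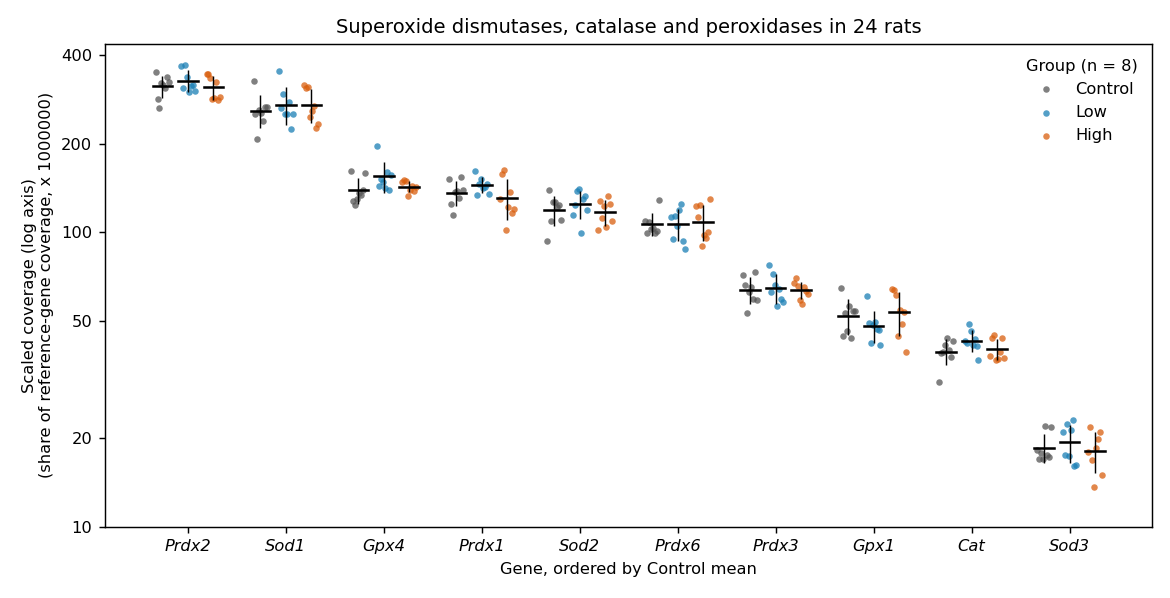
Scaled coverage of the 10 genes (log axis) in each of the 24 rats, with genes ordered by their Control mean, points for single rats, horizontal bars for group means and vertical bars for 1 SD (n = 8 per group). The 3 groups of each gene overlap. The whole range from Prdx2 (313 in Control) down to Sod3 (18.6 in Control) is far larger than any difference between groups. Single steps from Gpx4 to Prdx6 are small.

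The order holds on the coverage scale. In the FPKM column, scaled in the same way, 5 of the 10 genes kept their rank. Gpx4 moved from the third to the second place (264 ± 26.2 in Control) and Prdx6 from the sixth to the fourth (143 ± 13.8). For both genes the ratio of coverage to FPKM was lower than the median ratio of all genes of the same rat, by a factor of down to 0.496 for Gpx4 and of 0.687 to 0.720 for Prdx6. It was at least 0.905 of that median for Sod2 and, after rounding to 3 digits, equal to it for the other members. Gpx4 overlaps Sbno2 and Prdx6 overlaps a gene named AC127084.2, in both cases on the opposite strand. Sod2 overlaps no reference gene. Libraries were stranded, but the sources used here give no strand setting for quantification. In every Control and High table an assembled locus opposite Gpx4 was listed separately, at a coverage of 11.5 to 38.7. The assembled locus on the strand of Gpx4 had 221 to 400. Whether reads of such partners were fully separated, and whether they bear on these ratios, was not tested.

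Among the superoxide dismutases, Sod1 (ENSRNOG00000002115, chromosome 11, 30363280 to 30368862, plus strand) was by far the most abundant. Positions are those of the deposited tables. The labels name build mRatBN7.2, but contig names in the tables belong to an earlier assembly, so the build of the positions is not settled. Scaled coverage of Sod1 was 207 to 327 among Control rats (median 257), 224 to 353 among Low rats (median 258) and 226 to 317 among High rats (median 264). The highest Control and Low values were those of libraries 49 and 57, and each group's median lay within the range of the others. Sod2 (ENSRNOG00000019048, chromosome 1, 47914759 to 47921587, minus strand) was at 93.6 to 139 among Control rats (median 123), 99.2 to 140 among Low rats (median 127) and 102 to 133 among High rats (median 117). Its lowest Control value came from library 49, where Sod1 was highest. Sod3 (ENSRNOG00000003869, chromosome 14, 60958592 to 60964324, minus strand) was at 17.0 to 22.0 among Control rats (median 17.6), 16.1 to 23.0 among Low rats (median 19.3) and 13.7 to 21.8 among High rats (median 18.2). Low rats were spread over the whole range of the Control rats and beyond it on both sides. The log2 fold changes of Low against Control were 0.07 for Sod1 (SE 0.09, limma adjusted p = 0.744), 0.07 for Sod2 (SE 0.08, adjusted p = 0.674) and 0.05 for Sod3 (SE 0.10, adjusted p = 0.803). Those of High against Control were 0.07, -0.02 and -0.04 with the same SEs and adjusted p = 0.999 for each. None passed the threshold of an adjusted p under 0.05.

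Catalase splits hydrogen peroxide without an outside reductant and is encoded by Cat (ENSRNOG00000008364, chromosome 3, 93379874 to 93412058, minus strand). It was at 30.9 to 43.9 among Control rats (median 39.5), 37.0 to 49.0 among Low rats (median 42.4) and 36.9 to 44.7 among High rats (median 38.6). Library 49 gave the lowest value of all 24 rats, and the other Control rats had 37.8 to 43.9. The median of Control was exceeded by 7 of 8 Low rats and by 3 of 8 High rats. The log2 fold change of Low against Control was 0.12 (SE 0.07, limma adjusted p = 0.331, 95% confidence interval -0.01 to 0.26). Without libraries 49 and 57 it was 0.08 (SE 0.06, adjusted p = 0.561).

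The glutathione peroxidases had fold changes of opposite sign in Low against Control, and neither passed the test. Gpx4 (ENSRNOG00000013604, chromosome 7, 12516352 to 12519154, minus strand) reduces lipid peroxides inside membranes and is known for holding back ferroptosis. Its scaled coverage was 124 to 162 among Control rats (median 135), 139 to 197 among Low rats (median 150) and 133 to 150 among High rats (median 143). All 8 Low rats lay above the Control median, and library 57 lay above all others, with 139 to 160 in the other Low rats. The log2 fold change of Low against Control was 0.15 (SE 0.07), with an unadjusted limma p of 0.0292, the only one under 0.05 among the 30 member comparisons, and an adjusted p of 0.205. When 1 library was left out, the unadjusted limma p ran from 0.0081 without library 49 to 0.0815 without library 57 (log2 fold change 0.10), and it was also above 0.05 without library 50 (0.0583), 51 (0.0638) or 52 (0.0542). Without libraries 49 and 57 the log2 fold change of Low against Control was 0.13 (SE 0.05, limma adjusted p = 0.168). With all libraries the log2 fold change of High against Control was 0.05 (SE 0.07, limma adjusted p = 0.999).

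Gpx1 (ENSRNOG00000048812, chromosome 8, 117117430 to 117118522, plus strand), the widely expressed cytosolic enzyme, was at 43.7 to 64.9 among Control rats (median 53.5), 41.4 to 60.6 among Low rats (median 47.7) and 39.3 to 64.0 among High rats (median 54.0). Only 1 of 8 Low rats, library 57, lay above the Control median, and the other Low rats had 41.4 to 49.6. The log2 fold change was -0.11 for Low against Control (SE 0.10, adjusted p = 0.591) and -0.15 for Low against High (SE 0.10, adjusted p = 0.333). Gpx1 had the widest spread between rats of the 10 genes, with a residual SD of 0.21 on the log2 scale, and its intervals were accordingly the widest.

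Peroxiredoxins of the typical kind, Prdx1 to Prdx3, form disulphide-linked pairs that thioredoxin reduces, while Prdx6 is recharged by glutathione and also has phospholipase activity. Prdx2 (ENSRNOG00000003520, chromosome 19, 26084903 to 26090094, plus strand), known as a mainly neuronal peroxiredoxin in brain, was at 264 to 349 among Control rats (median 319), 300 to 370 among Low rats (median 315) and 281 to 346 among High rats (median 305). The medians of the 3 groups lay within the range of each group. Prdx1 (ENSRNOG00000017194, chromosome 5, 135536413 to 135551990, plus strand) was at 114 to 154 among Control rats (median 138), 134 to 162 among Low rats (median 144) and 102 to 163 among High rats (median 126). All 8 Low rats lay above the High median, and the High rats were the most spread out, with an SD of 21.0 against 13.3 in Control and 8.96 in Low. The log2 fold change of Low against High was 0.15 for Prdx1 (SE 0.08, limma adjusted p = 0.204, 95% confidence interval -0.01 to 0.32). Against Control, it was 0.09 in Low (adjusted p = 0.593) and -0.07 in High (adjusted p = 0.999).

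The mitochondrial Prdx3 (ENSRNOG00000010958, chromosome 1, 282238773 to 282251257, minus strand) was at 53.3 to 73.2 among Control rats (median 64.0), 56.0 to 77.7 among Low rats (median 63.6) and 57.3 to 69.7 among High rats (median 64.2). Its 3 group medians were the closest of all members. Prdx6 (ENSRNOG00000002896, chromosome 13, 79077033 to 79088127, minus strand) was at 99.2 to 128 among Control rats (median 103), 87.6 to 125 among Low rats (median 109) and 89.5 to 129 among High rats (median 106). The high Control value was library 56, and the other Control rats had 99.2 to 109. The log2 fold changes of Low against Control were 0.06 for Prdx2 (SE 0.07, adjusted p = 0.647), 0.02 for Prdx3 (SE 0.07, adjusted p = 0.924) and -0.0065 for Prdx6 (SE 0.08, adjusted p = 0.976). Those of High against Control were -0.01, -0.00052 and 0.02, each with an adjusted p of at least 0.999.

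**Figure D2:**
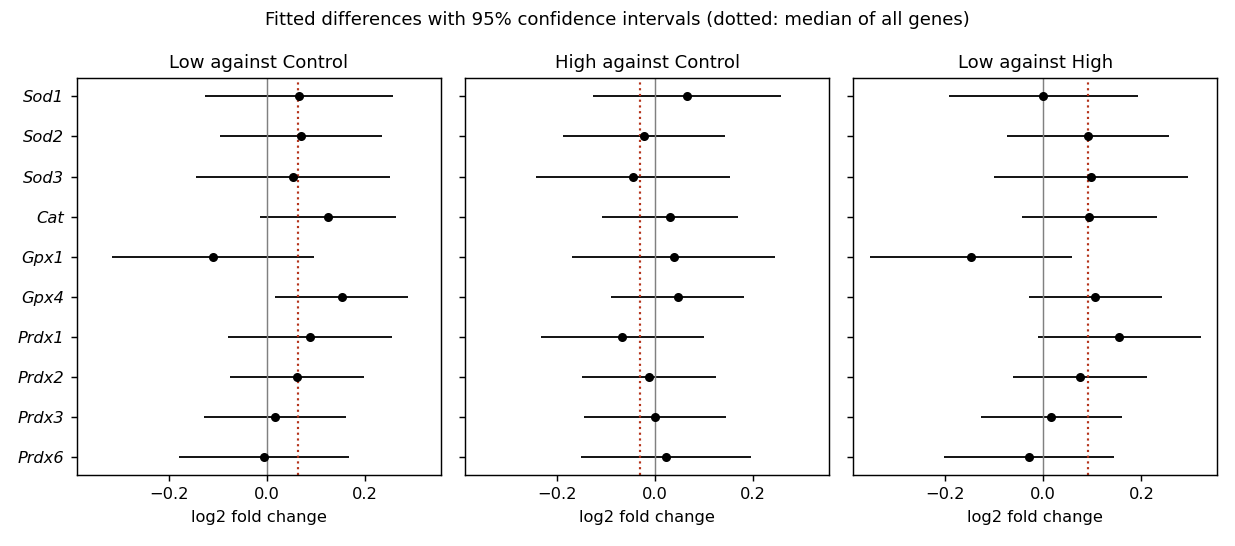
Fitted log2 fold change of each gene (points) with its 95% confidence interval (bars) in 3 comparisons of groups of 8 rats, with a grey line at 0 and a dotted line at the median of all 15644 genes tested. The interval of Gpx4 in Low against Control (0.02 to 0.29) is the only one that does not reach 0, and it is not adjusted for the number of genes.

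Read against all genes, the 10 enzymes did not stand out. In Low against Control 0 of 10 passed the threshold, while 956 of all 15644 genes tested did (6.11%; 1.23% higher in Low and 4.88% lower). An unadjusted limma p under 0.05 was reached by 1 of 10 members and by 18.4% of all genes. In High against Control 0 of 10 members and 0 of all genes passed (0%; 0% higher and 0% lower), and an unadjusted p under 0.05 was reached by 0 members and by 330 genes (2.11%). In Low against High 0 of 10 members passed, against 11.7% of all genes (5.3% higher in Low and 6.39% lower), and 0 of 10 had an unadjusted p under 0.05, against 29.1% of all genes. The 2 groups overlapped for all 10 members in all 3 comparisons, while they did not overlap for 1.53% of all genes in Low against Control, 0.00639% in High against Control and 2.26% in Low against High. An exact Wilcoxon rank-sum test in place of limma also called 0 members in each comparison and 0 of all genes in High against Control, where 887 genes had an unadjusted p under 0.05.

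Library choice moved the counts over all genes but not those of the members. Without libraries 49 and 57, 390 genes passed in High against Control and 4514 in Low against High, and 0 of 10 members passed in any comparison. Libraries 56 to 62, a run of neighbouring numbers with 1 Control and 6 Low rats that was singled out on values of these data, were also taken as a covariate and left out. In both cases 0 of 10 members passed in any comparison. Without them, with 2 Low rats remaining, the log2 fold changes of Low against Control lay between -0.22 for Gpx1 (SE 0.17, adjusted p = 0.810) and 0.12 for Gpx4 (SE 0.09, adjusted p = 0.807).

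The signs of the fold changes are given beside those of all genes. In Low against Control 8 of 10 members had a fold change above 0, with a median of 0.06 on the log2 scale, and 66.5% of all genes did, with a median of 0.06. In High against Control it was 5 of 10 with a median of 0.01, and 36% of all genes with a median of -0.03. In Low against High it was 8 of 10 with a median of 0.08, and 69.9% of all genes with a median of 0.09. These 3 comparisons share their groups and are not independent. The split of calls over all genes depended on the scaling, with 192 higher and 764 lower in Low against Control as given above, 858 and 901 when mitochondrial genes were left out of the sum, and in Low against High 829 and 999 as given above, 370 and 1286 with median-of-ratios scaling, and 1550 and 1169 without mitochondrial genes in the sum. Without scaling it was 56 and 705 in Low against Control and 108 and 1262 in Low against High. The split also depended on the libraries. In Low against High it was 1602 and 1074 without library 49, 1340 and 1016 without 57, 391 and 891 without 59, 1519 and 960 without 61, 387 and 879 without 62, 3343 and 1171 without both 49 and 57, and 19 and 335 without 56 to 62. In Low against Control it was 322 and 641 without library 61 and 10 and 334 without 56 to 62, and in High against Control 7 and 383 without 49 and 57.

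The size of differences that the data leave possible can be read from the intervals. Over the 10 members, the 95% confidence intervals ran from -19.7% to 22.1% for Low relative to Control and from -15.5% to 19.5% for High relative to Control. For Cat, Gpx4, Prdx2 and Prdx3, which have the smallest SEs (0.07), the High against Control intervals lay between -9.80% and 13.5%. A p that misses the threshold does not show that the groups are alike, but larger differences than these lie outside the intervals of this fit. Those cover the spread between these rats and are not adjusted for the number of genes. Other fits gave wider intervals. For Gpx1 in Low against Control the log2 fold change was -0.11 here, with an interval half-width of 0.21. It was -0.19 with a half-width of 0.27 when libraries 56 to 62 were a covariate, and -0.22 with 0.36 without them. For Low, dose and the kind of table cannot be told apart.

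The members varied less between rats of a group than most genes. The residual SD on the log2 scale was 0.13 to 0.21 over the 10 genes and 0.22 at the median of all genes tested. At the median of the 6701 genes with Control levels between those of Sod3 and Prdx2 it was 0.17. Gpx4, Prdx2 and Cat had a smaller residual SD than 89.9%, 89.6% and 89.4% of all genes tested. Sod1, Sod3 and Gpx1 had residual SDs of 0.19 to 0.21, above the median of genes at these levels.

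Some members varied together from rat to rat within groups. For each pair, log2 levels were centred on the group mean and correlated over the 24 rats, with 100000 permutations within groups and adjustment over all 45 pairs. Of the 45 pairs, 16 passed, all with a positive r. No share over pairs of all genes is given here, so this count does not set the members apart from other genes. Sod1, Gpx4, Prdx1, Prdx2 and Prdx3 formed the core, since all 10 pairs among them passed, with r from 0.57 to 0.84. Gpx1 also passed with Sod1 (r = 0.64), Prdx1 (r = 0.61), Gpx4 (r = 0.56) and Prdx2 (r = 0.53), with permutation adjusted p from 0.00639 to 0.0398. It did not pass with Prdx3 (r = 0.43, permutation adjusted p = 0.0767). Without libraries 49 and 57, no pair of Gpx1 with a gene of the core passed (permutation adjusted p of at least 0.1185). The closest pair was Sod1 and Prdx2 (Pearson r = 0.84, Spearman rho = 0.82, permutation p = 2e-05, adjusted p = 0.000225). Leaving out the 2 rats farthest from the Sod1 median gave r = 0.81. Prdx1 and Prdx2 had r = 0.81 (rho = 0.86, permutation p = 1e-05, the smallest that 100000 permutations can give, adjusted p = 0.000225, r = 0.85 without the 2 farthest rats), and Prdx2 and Prdx3 had r = 0.80 (rho = 0.75, permutation p = 2e-05, adjusted p = 0.000225, r = 0.75 without the 2 farthest rats).

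Over all 24 rats, 0 of the 10 pairs of Sod2 or Cat with a gene of this core passed. Sod2 had r = -0.25 with Sod1 (rho = -0.12, permutation adjusted p = 0.344) and r = -0.35 with Gpx4 (rho = -0.24, permutation adjusted p = 0.187), and Cat had r = -0.03 with Sod1 (permutation adjusted p = 0.948). Sod2 and Cat correlated with each other (r = 0.54, rho = 0.47, permutation adjusted p = 0.0392). Without the 2 rats farthest from the Sod2 median r was 0.37, and without libraries 49 and 57 it was 0.36 (permutation adjusted p = 0.214). The pair thus no longer passed without libraries 49 and 57, while r was smaller but still positive. Cat and Sod3 had r = 0.49 (rho = 0.54, permutation adjusted p = 0.0450, r = 0.42 without the 2 farthest rats), and r = 0.60 without libraries 49 and 57 (permutation adjusted p = 0.0324).

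Without libraries 49 and 57, 12 of 45 pairs passed, 10 of which were among the 16. In the core, 9 of 10 pairs still passed, with r from 0.33 (Gpx4 and Prdx3) to 0.81. Sod1 and Prdx2 kept r = 0.81 (permutation adjusted p = 0.0015). The 22 rats also gave Sod1 and Cat r = 0.37 in place of -0.03, and Cat had r from 0.26 to 0.52 with the 5 genes of the core, which reaches above the lowest r within it. Sod2 and Prdx3 passed there with r = 0.58 (permutation adjusted p = 0.0323). Scaled values of a rat share 1 denominator and 1 library, so part of any correlation between them can come from what the library has in common. Without scaling, all 45 pairs passed, and with median-of-ratios scaling, 23 did.

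**Figure D3:**
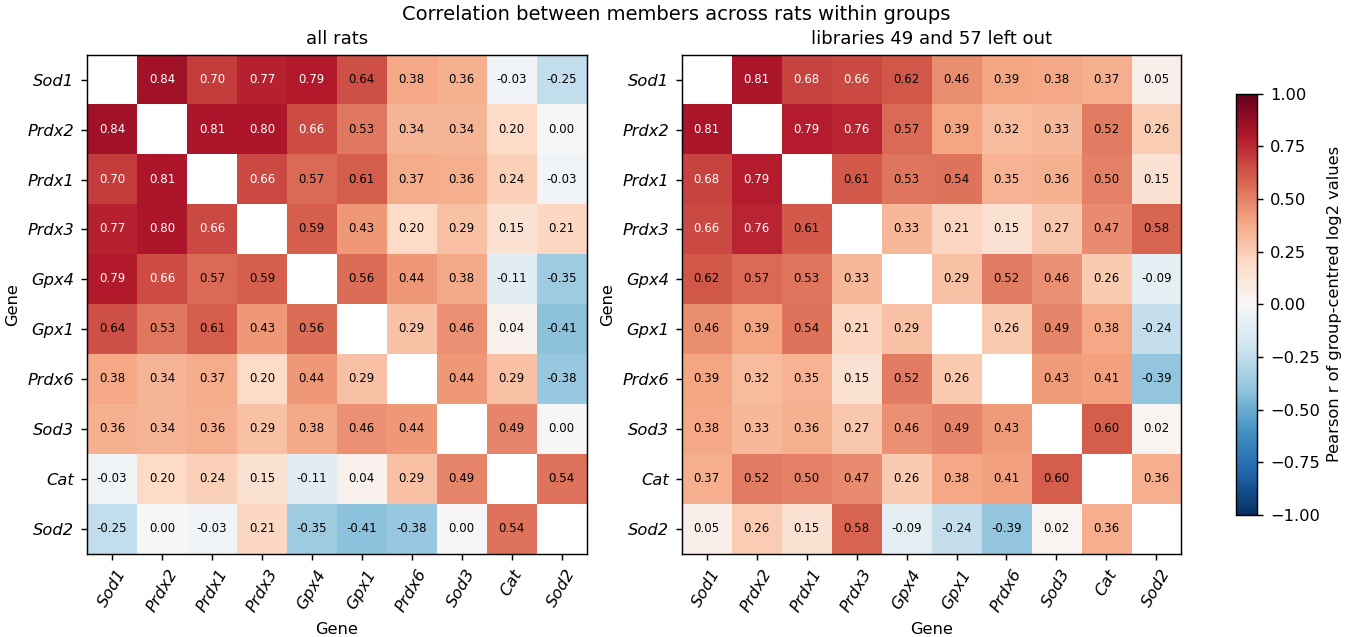
Pearson r between the 10 genes, computed on log2 values centred on the group mean, over all 24 rats (left) and over the 22 rats without libraries 49 and 57 (right), with red for positive and blue for negative r. The block of Sod1, Prdx2, Prdx1, Prdx3 and Gpx4 runs from 0.57 to 0.84 on the left and from 0.33 to 0.81 on the right, while on the left Sod2 and Cat run from -0.35 to 0.24 with these 5 genes and on the right Sod2 runs from -0.09 to 0.58 and Cat from 0.26 to 0.52.

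Of the 5 genes of the core, 4 moved with the ribosomal protein genes, which encode short and abundant transcripts, and so did Gpx1. No share over all genes is given beside the counts of relations with list sums, here and further on. These counts thus do not show a trait particular to the members. In 120 relations (10 members with 12 summed lists, adjusted together), 15 passed over 24 rats, and 5 of these were with the ribosomal protein sum. They were Gpx4 (r = 0.85, rho = 0.77, permutation adjusted p = 0.0006), Sod1 (r = 0.85, rho = 0.80, permutation adjusted p = 0.0006), Gpx1 (r = 0.76, rho = 0.74, permutation adjusted p = 0.0024), Prdx2 (r = 0.68, rho = 0.65, permutation adjusted p = 0.0188) and Prdx1 (r = 0.67, rho = 0.63, permutation adjusted p = 0.0122). Without the 2 rats farthest from the median of the sum, r was 0.58 to 0.76 for these 5 genes. Prdx3, the fifth of the core, had r = 0.48 (permutation adjusted p = 0.0905). A second draw of 100000 permutations passed 13 of the 120 relations, all among the 15 and with these 5 included, so calls with an adjusted p just under 0.05 depend on the draw. Sod2 went with the very long transcripts instead (r = 0.69, rho = 0.69, permutation adjusted p = 0.0276, r = 0.70 without the 2 farthest rats, r = 0.72 without libraries 49 and 57). Gpx1 had the opposite sign with that sum (r = -0.56, rho = -0.43, permutation adjusted p = 0.0314), but r was -0.26 without the 2 farthest rats and -0.23 without libraries 49 and 57. Over the 22 rats without libraries 49 and 57, 22 of the 120 relations passed (24 in the second draw), of which 4 were with the ribosomal protein sum (Sod1, Gpx4, Gpx1 and Prdx6, r from 0.60 to 0.76), 1 with the very long transcripts (Sod2) and 17 with sums of cell type markers, given further on. For the ribosomal protein sum the adjusted permutation p there was 0.0503 for Prdx1 and 0.0529 for Prdx2. Whether RNA quality has a part in these correlations was not tested.

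**Figure D4:**
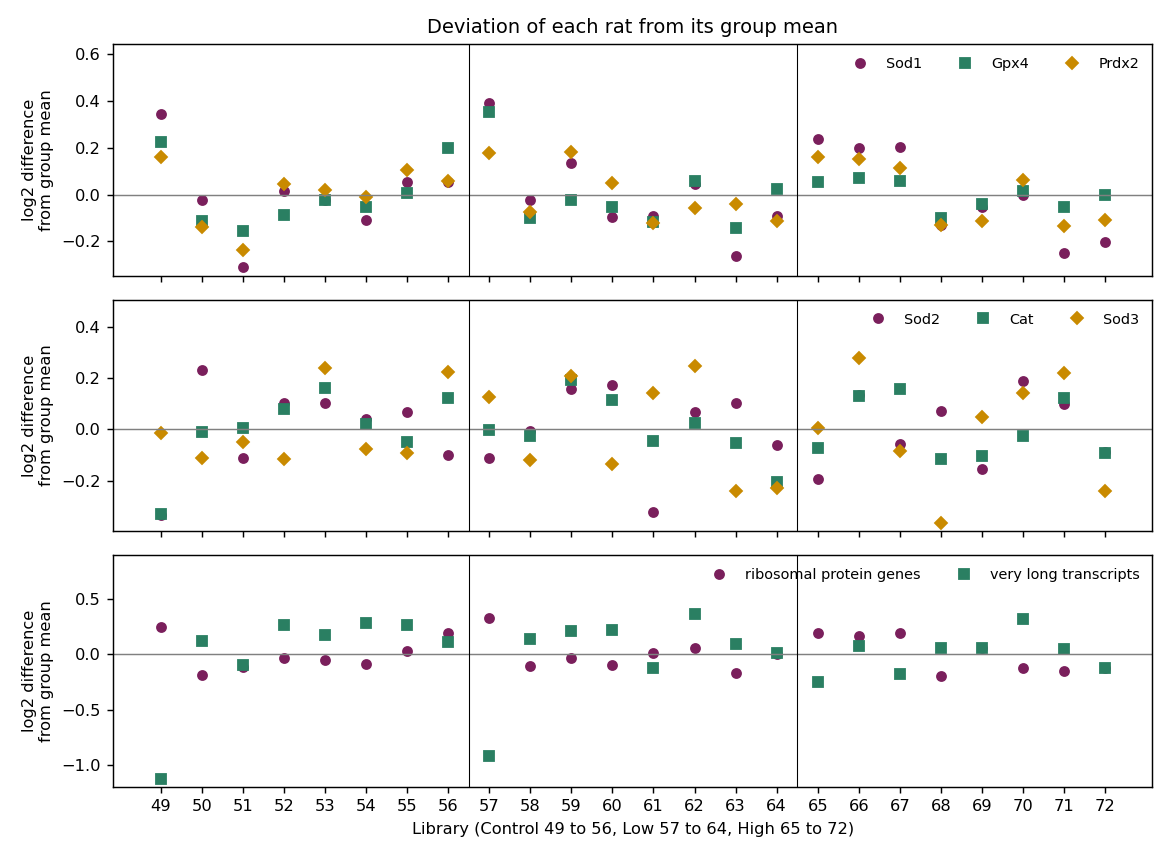
Difference of each rat from its group mean on the log2 scale, for Sod1, Gpx4 and Prdx2 (top), Sod2, Cat and Sod3 (middle), and the summed ribosomal protein genes and very long transcripts (bottom), with vertical lines between the 3 groups of 8 rats. Libraries 49 and 57 have the highest Sod1 of their groups (327 and 353 scaled coverage) and the lowest very long transcript sums (177 and 226).

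Cell type markers moved with Cat, Sod3, Gpx1, Sod2 and, in 1 of 2 draws, Prdx1 over all 24 rats, and with Sod1, Gpx4, Prdx1 and Prdx2 of the core once libraries 49 and 57 were left out. Over the 24 rats, 8 of the 100 relations with marker sums passed, and 1 of these was with a gene of the core. Over the 22 rats, 17 passed (19 in the second draw), and 9 of these were with genes of the core. Cat correlated with the sums of meningeal fibroblast markers (r = 0.68, rho = 0.65, permutation adjusted p = 0.0090), astrocyte markers (r = 0.66, rho = 0.60, permutation adjusted p = 0.0314) and endothelial markers (r = 0.66, rho = 0.52, permutation adjusted p = 0.0276). Without the 2 farthest rats, r was 0.66, 0.58 and 0.45. Without libraries 49 and 57 the adjusted permutation p was 0.0226, 0.0503 and 0.0796. Sod3 correlated with meningeal fibroblast markers (r = 0.64, rho = 0.63, permutation adjusted p = 0.0276, r = 0.56 without the 2 farthest rats). Gpx1 correlated with striatal markers such as Drd1 and Penk (r = 0.64, rho = 0.62, permutation adjusted p = 0.0314), with r = 0.55 without the 2 farthest rats and r = 0.83 without libraries 49 and 57. Sod2 correlated with neuronal markers (r = 0.57, rho = 0.56, permutation adjusted p = 0.0361, r = 0.54 without the 2 farthest rats), and without libraries 49 and 57 the adjusted permutation p was 0.0745. Gpx1 with neuronal markers (r = -0.59, rho = -0.65, permutation adjusted p = 0.0463) and Prdx1 with oligodendrocyte markers (r = 0.62, rho = 0.57, permutation adjusted p = 0.0481) passed in the first draw and not in the second, where both had an adjusted permutation p of 0.0512. Without the 2 farthest rats r was -0.64 and 0.53. Over the 22 rats without libraries 49 and 57, Prdx1 passed with the sums of astrocyte (r = 0.71, permutation adjusted p = 0.0148), microglial (r = 0.70), striatal (r = 0.71) and oligodendrocyte markers (r = 0.65), the last with an adjusted permutation p of 0.0488 and, in the second draw, 0.0411. Sod1 passed there with striatal (r = 0.76, permutation adjusted p = 0.0148) and astrocyte markers (r = 0.61), Prdx2 with striatal (r = 0.65) and microglial markers (r = 0.60, permutation adjusted p = 0.0488), and Gpx4 with microglial markers (r = 0.58, permutation adjusted p = 0.0488). Outside the core, Gpx1 passed there with microglial, fibroblast, red cell and striatal markers, Sod3 with astrocyte, mural cell and fibroblast markers, and Cat with fibroblast markers (r from 0.58 to 0.83). These sums differed widely between rats. The fibroblast sum was 39.1 to 88.4 among Control rats, 23.0 to 61.2 among Low rats and 22.0 to 73.0 among High rats, with 4 of its 5 genes in the tables. The striatal sum was 376 to 880 among Control rats, 255 to 648 among Low rats and 173 to 1432 among High rats, with all 6 of its genes tested. The part of tissue composition in the levels of these members was not tested.

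The sums of the other marker lists overlapped between groups. The neuronal sum was 1509 to 2067 among Control rats, 1412 to 2059 among Low rats and 1148 to 2060 among High rats. The astrocyte sum was 775 to 1756, 898 to 1639 and 878 to 1409, the oligodendrocyte sum 3864 to 5587, 4154 to 7952 and 2466 to 6258, and the microglial sum 131 to 235, 173 to 200 and 146 to 244. Endothelial markers summed to 47.8 to 87.5, 65.7 to 82.6 and 51.2 to 68.3, mural cell markers to 108 to 201, 96.6 to 157 and 82.8 to 235, choroid plexus markers to 6.83 to 73.6, 5.99 to 17.5 and 6.56 to 32.5, and red cell markers to 765 to 1684, 464 to 1389 and 558 to 1771. Of the markers found in the tables, none was at 0 in all 24 rats, and Cldn5, Folr1, Kl and Slc4a1 had a mean under 1. Of 50 tested markers, 2 passed in any comparison, 1 in Low against Control, where 6.11% of all genes passed, and both in Low against High, where 11.7% did. Pdgfrb, the receptor that marks pericytes, was at 7.71 to 15.7 among Control rats, 4.85 to 9.11 among Low rats and 9.24 to 16.3 among High rats. It was lower in Low than in Control (log2 fold change -0.68, SE 0.13, limma adjusted p = 0.000902) and than in High (-0.64, SE 0.13, limma adjusted p = 0.00136). Slco1a4, an organic anion transporter of brain endothelium, was higher in Low than in High (0.33, SE 0.10, limma adjusted p = 0.0235), and no longer passed in 3 of 24 fits without 1 library.

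The calls among genes that supply and assist the 10 enzymes are to be read beside those of all genes, 6.11% in Low against Control, 0% in High against Control and 11.7% in Low against High. Of 14 tested genes of thioredoxin and glutaredoxin recycling, which keep peroxiredoxins reduced, 0 passed against Control at either dose and 1 passed in Low against High. That gene was Sesn2, a stress-induced sestrin, with 8.36 to 11.5 among Low rats (median 10.5) and 7.66 to 9.81 among High rats (median 8.76), a log2 fold change of 0.23 (SE 0.07, limma adjusted p = 0.0323) that no longer passed in 8 of 24 fits without 1 library. Of 15 tested genes of glutathione and NADPH supply 0 passed in any comparison, with a smallest adjusted p of 0.0509 in Low against High, where all 15 had a fold change above 0, as did 69.9% of all genes, with a median of 0.14 for the list and 0.09 for all genes. The most abundant of them were Slc3a2, the heavy chain of the cystine transporter (107 ± 10.6 in Control, SD, n = 8), and Ggt7 (101 ± 11.3). Of 5 tested other peroxidases 0 passed in any comparison. They were led by Prdx5 (221 ± 26.0 in Control) and Gpx8 (22.5 ± 1.97), while Gpx2, Gpx5 and Gpx6 had a mean under 1 and Gpx6 was listed at 0 in all 24 rats.

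Of 10 tested genes of selenoprotein synthesis and supply, which provide the selenocysteine in Gpx1 and Gpx4, only Selenop passed. Selenop encodes the secreted selenoprotein P, which carries selenium to tissues including brain. Its scaled coverage was 213 to 371 among Control rats (median 322), 174 to 300 among Low rats (median 238) and 278 to 363 among High rats (median 323). Low rats lay lower than the other groups but overlapped both. The log2 fold change was -0.42 for Low against Control (SE 0.10, limma adjusted p = 0.012) and -0.48 for Low against High (SE 0.10, limma adjusted p = 0.00305). It was 0.05 for High against Control (SE 0.10, adjusted p = 0.999). With libraries 56 to 62 as a covariate, Selenop no longer passed (-0.27, adjusted p = 0.493, against Control). The 9 other genes of the list did not pass in any comparison.

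Copper delivery, on which Sod1 and Sod3 depend, had 0 of 7 tested genes past the threshold in any comparison, and its most abundant genes were Cox17 (104 ± 15.2 in Control) and the copper chaperone Atox1 (55.0 ± 11.4). The peroxisome list, the compartment of catalase, had 0 of 21, led by the transporter Abcd3 (55.5 ± 6.49) and the import factor Pex14 (45.2 ± 3.54). Among oxidant sources, 1 of 8 tested genes passed. Maob, the mitochondrial monoamine oxidase B that releases hydrogen peroxide, was at 55.1 to 66.9 among Low rats (median 61.2), 39.2 to 61.6 among High rats (median 51.2) and 41.5 to 61.9 among Control rats (median 52.1). It was higher in Low than in High (log2 fold change 0.25, SE 0.08, limma adjusted p = 0.0435), and the value against Control was 0.25 (SE 0.08, adjusted p = 0.0744). The call no longer held in 11 of 24 fits without 1 library. The NADPH oxidase genes Nox3, Nox4, Duox1 and Duox2 and the regulators Noxa1 and Noxo1 had a mean under 1 and were not tested.

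The choice of the column decided how Low compared with the other groups. In the FPKM column all 10 members passed in Low against Control and in Low against High, with log2 fold changes of 0.38 to 0.66 and 0.30 to 0.61. The median of all genes was shifted by 0.53 and 0.52 in the same comparisons, and relative to it the members lay between -0.15 and 0.13, and between -0.22 and 0.09. Among the 13816 genes tested on that column, 12393 and 12410 passed. In the TPM column Cat (0.22, limma adjusted p = 0.0407) and Gpx4 (0.25, limma adjusted p = 0.00911) passed in Low against Control. There 3952 of the 15587 genes tested passed, and the median of all genes was 0.17. On scaled coverage the medians of all genes were 0.06 and 0.09 in these comparisons.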

How the data were processed

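Frontal cortex RNA of 24 rats, 8 per group by the sample labels, was made into stranded mRNA libraries, and the authors deposited 1 gene table per rat. The submitters' processing notes name FastQC, Trimmomatic, TopHat2, StringTie and build mRatBN7.2, without versions of the tools. The titles carry the word Repeat, which is not explained. The labels do not say more of how rats were housed or exposed together, so p-values measure the spread between these libraries. Coverage (signal) as deposited is the mean number of reads over a base and carries no correction for sequencing depth. The FPKM column made by the authors with StringTie is corrected for transcript length and for sequenced bases. TPM values deposited for Low rats sum to 1000000. For Control and High rats that total is reached by assembled loci alone, so their deposited TPM column was treated as a score.

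Coverage of the reference genes was summed per identifier, expressed as parts of 1000000 of the total over the 32883 reference genes. A mean of 1 or more was required of a gene (15644 genes), and limma 3.58.1 (trend, robust) in R 4.3.3 was run on log2(value + 1) with all 24 rats in 1 fit, two-sided, with Benjamini-Hochberg adjustment over all genes tested. Fold changes are on the log2(value + 1) scale, which understates changes of low genes. Correlations used 100000 two-sided permutations within groups in Python 3.11.15 with numpy 2.4.6. Random seeds were changed once after results were seen, for a reason unrelated to the results, and a second draw was added to show which calls depend on the draw. The fit and the correlation were tested on simulated data. Alternatives were a pseudocount of 0.1, other minimum means (none, or 5), other scalings, the FPKM and TPM columns, only the groups compared, exact Wilcoxon tests, libraries 56 to 62 as a covariate, limma without trend, and each library left out.

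The members, the lists and the first alternatives were chosen with earlier results of these data known. Leaving out libraries 49 and 57 or 56 to 62, the sums of ribosomal protein genes (81 identifiers) and of 10 genes with very long transcripts, and the relations of members with list sums were chosen after seeing the data. All 10 members are named. From each other list the genes past the threshold are named, at most 4, or else the 2 with the highest Control level. Symbols such as Srxn1, Pgd, Ggt5 and Pex19 were not found in the tables under these names. Gene names are those of the tables, and promoter sequences and their coordinates are from RefSeq on GRCr8. The tables' fold changes or p-values by the authors were not used, as they hold none.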

Additional observations from a re-analysis of the deposited data

Results flagged for a closer look

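Of 39 sets of 8 rats examined for an extreme rat (the 10 members, both added sums and the summed coverage, in 3 groups), 8 held one whose gap to the nearest other rat exceeded Dixon's 95% critical share of the range. About 1 in 20 sets, here 1.95, would be so by chance. For Cat it was Control replicate 49 with a scaled coverage of 30.9, where the others had 37.8 to 43.9. For Gpx1 it was Low replicate 57 with 60.6, where the others had 41.4 to 49.6, and for Gpx4 the same rat with 197, where the others had 139 to 160. For Prdx6 it was Control replicate 56 with 128, where the others had 99.2 to 109. The same libraries appeared in sums that do not hold the members. The very long transcripts summed to 177 in Control replicate 49, where the others had 362 to 472, and the ribosomal protein genes to 29480 in Low replicate 57, where the others had 20810 to 24420. Summed reference coverage in units of 1000000 was 2.82 in Control replicate 51, where the others had 1.67 to 2.03, and 3.07 in Low replicate 60, where the others had 1.64 to 2.05.

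For 5 genes of the supporting and marker lists, the effect of the low dose differed from that of the high dose by the test of Low against High, while 0 of the 10 members did. The log2 fold changes were -0.64 for Pdgfrb, -0.48 for Selenop, 0.25 for Maob, 0.23 for Sesn2 and 0.33 for Slco1a4. Those of Pdgfrb and Selenop passed in all 24 fits that left out 1 library, with limma adjusted p from 0.00016 to 0.00413 and from 0.000536 to 0.00888. With the FPKM column that of Pdgfrb was 0.17 and did not pass (limma adjusted p = 0.129), where the median of all genes was 0.52. That of Maob no longer passed without any 1 of libraries 52, 54, 57, 59, 60, 62, 65, 68, 70, 71 or 72 (0.20 to 0.25 on the log2 scale, adjusted p up to 0.0923). That of Sesn2 no longer passed without 59, 60, 62, 63, 67, 68, 69 or 72 (0.21 to 0.23, adjusted p up to 0.0747), and that of Slco1a4 without 62, 65 or 72 (0.30 to 0.31, adjusted p up to 0.0570). Over all alternatives, these fits included, 44 values of the 5 genes in Low against High kept their sign but no longer passed. In Low against Control, 7 values of Pdgfrb and Selenop did so, none of them in a fit that left out 1 library. Only the Low tables hold no assembled loci, so these differences and the kind of table cannot be told apart.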

How the results depend on the processing

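No paired analysis was possible because each library number occurs in 1 group only. The number of members past the threshold stayed at 0 in all 3 comparisons under every alternative, except 10 in Low against Control and 10 in Low against High with the FPKM column, and 2 in Low against Control with the TPM column. The number of all genes past it in Low against Control, 956 as reported, was 556 with a minimum mean of 5, 1759 with mitochondrial genes left out of the sum, 12393 with FPKM, 3952 with TPM, 535 with only the groups compared, 370 with Wilcoxon tests, 361 with libraries 56 to 62 as a covariate and 344 without them. In Low against High, 1828 as reported, it was 1192 with a minimum mean of 5, 12410 with FPKM, 3927 with TPM, 1134 with Wilcoxon tests, 354 with libraries 56 to 62 as a covariate and 354 without them, and 4514 without libraries 49 and 57. In High against Control, 0 as reported with 330 at an unadjusted limma p under 0.05, it was 390 without libraries 49 and 57. Pairs of members that correlated, 16 of 45 as reported, were 45 without scaling, 10 with libraries 56 to 62 left out (11 in a second draw of permutations), and 10 to 20 when 1 library was left out, with 10 without library 57. The FPKM column kept the rank of 5 of 10 members. Of all genes, 13816 were tested in that column and 15587 in the TPM column. The causes were not tested, other than that a higher minimum tests fewer genes.

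Of 1140 member fold changes under alternatives, 1017 kept their sign and their side of the threshold. A further 105 changed sign, and 18 kept their sign and passed the threshold. Apart from Gpx1 and Prdx6 with FPKM, none that changed sign passed the threshold. Values that changed sign are on the log2 scale and stand beside the median shift of all genes given above. With FPKM they were Gpx1 0.38, Prdx6 0.54, Pdgfrb 0.12 and Selenop 0.088 in Low against Control, Sod2 0.044, Sod3 0.0023, Prdx2 0.036 and Prdx3 0.046 in High against Control, and Gpx1 0.30, Prdx6 0.47 and Pdgfrb 0.17 in Low against High. With TPM they were Prdx6 0.13 in Low against Control, Sod2 0.044, Sod3 0.0024, Prdx2 0.037 and Prdx3 0.048 in High against Control, and Prdx6 0.064 in Low against High. Without scaling, which moved the median of all genes to 0.14 in High against Control and to -0.12 in Low against High, they were Prdx3 -0.018 in Low against Control, Sod2 0.16, Sod3 0.13, Prdx1 0.12, Prdx2 0.17 and Prdx3 0.18 in High against Control, and Sod1 -0.22, Sod2 -0.13, Sod3 -0.11, Cat -0.12, Gpx4 -0.11, Prdx1 -0.063, Prdx2 -0.14 and Prdx3 -0.20 in Low against High. With median-of-ratios scaling they were Sod3 -0.0036 and Prdx3 -0.042 in Low against Control, Sod2 0.015, Prdx2 0.025 and Prdx3 0.036 in High against Control, and Sod1 -0.096, Sod2 -0.0035, Prdx2 -0.022 and Prdx3 -0.078 in Low against High. With mitochondrial genes left out of the sum they were Prdx6 0.019 in Low against Control, and Sod2 0.0019, Prdx2 0.012 and Prdx3 0.023 in High against Control. With libraries 56 to 62 as a covariate they were Sod1 -0.043, Sod3 -0.13 and Prdx3 -0.026 in Low against Control, Prdx3 0.0079 in High against Control, and Sod1 -0.13, Sod3 -0.12, Cat -0.025 and Prdx3 -0.034 in Low against High. Without those libraries they were Sod1 -0.11, Sod3 -0.15, Prdx2 -0.0071 and Prdx3 -0.13 in Low against Control, and Sod1 -0.18, Sod3 -0.14, Cat -0.034, Prdx2 -0.0028 and Prdx3 -0.12 in Low against High. Without libraries 49 and 57 they were Cat -0.017, Prdx2 0.011 and Prdx3 0.023 in High against Control, and Sod1 -0.056 and Prdx3 -0.022 in Low against High. When 1 library was left out, the fold changes that changed sign ran from -0.023 to 0.045 for Prdx3 and from -0.040 to 0.033 for Prdx6 in Low against Control. In High against Control they ran from -0.070 to 0.011 for Sod2, -0.084 to 0.0078 for Sod3, -0.017 to 0.053 for Cat, -0.00053 to 0.098 for Gpx1, -0.046 to 0.011 for Prdx2, -0.036 to 0.028 for Prdx3 and -0.014 to 0.062 for Prdx6. In Low against High they ran from -0.056 to 0.038 for Sod1, -0.022 to 0.044 for Prdx3 and -0.068 to 0.0088 for Prdx6. Without counts, what depth limits could not be computed.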

Other observations

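In Control and High tables the loci assembled from reads repeated the members to different degrees. For Sod3, Gpx1, Gpx4 and Prdx3 the assembled locus had the span and the coverage of the reference entry in 16 of 16 tables. Sod2 had the same coverage in 15 tables, Prdx6 in 14, Prdx1 in 11, Sod1 and Cat in 10 and Prdx2 in 4. For Prdx2, the most abundant member, the assembled locus had the reference span in 8 of 16 tables, and its coverage was down to 0.205 of the reference value. The cause was not tested.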
